A study of Mus musculus with 12 samples.

Results

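The transforming growth factor β (TGF-β) ligand and receptor genes are 7 genes of the 23420 in the deposited count table, taken by name: the ligands Tgfb1, Tgfb2 and Tgfb3, the receptors Tgfbr1 and Tgfbr2, and the co-receptors Tgfbr3 and Eng. With them go 6 of the 4740 BMAL1 binding regions, chosen by position, within 50 kb of the start of 1 of these genes. The regions as a whole were selected on the BMAL1 ChIP signal of EtOH-treated cells. The study asked how the clock repressor PER2 changes the DNA binding of the clock activator BMAL1, and transcription, in mouse embryonic fibroblasts. All cells were of the 129/sv background, were null for per1, per2, nr1d1 and nr1d2 (each -/-), and carried a PER2-ER transgene. Cells received 1 µM 4-OHT (4-hydroxytamoxifen, an estrogen receptor ligand) or its solvent, 0.1% EtOH, for 4 h. Stranded mRNA-seq, BMAL1 ChIP-seq and ChIP input were made with each treatment, with 2 libraries in each of the 6 groups and 12 in all. Since no label states that a group's 2 libraries are of separate cultures, p-values here cover library-to-library spread, part of which may be technical. Cells without the transgene were not analysed here, so PER2-ER activity and other effects of 4-OHT cannot be told apart. Nor can fewer cells of a type and less RNA per cell be told apart in bulk samples.

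TGF-β ligands are secreted in a latent form and act after release from it. An active ligand binds the type II receptor TGFBR2, which then recruits and phosphorylates the type I receptor TGFBR1. TGFBR1 phosphorylates SMAD2 and SMAD3, which enter the nucleus with SMAD4 and change the transcription of matrix, cytoskeletal and growth control genes in fibroblasts. Betaglycan, the product of Tgfbr3, presents ligand to TGFBR2 and matters most for TGF-β2, which binds TGFBR2 poorly by itself. BMAL1 pairs with CLOCK and binds E-boxes such as CACGTG, and PER2 represses this pair together with cryptochromes.

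The bases before the start are shown for 3 genes that differ in motif content, from RefSeq, build GRCm38.p6. Capitals mark the motifs searched. These were the E-box, spelled CACGTG, the TATA box, spelled TATAAA, and the GC box, spelled GGGCGG on either strand. Each window is 250 bases, 5′ to 3′ on the gene's strand. The windows are Tgfb2, chr1:186705990-186706239, minus strand; Tgfb1, chr7:25686752-25687001, plus strand; and Tgfbr2, chr9:116175364-116175613, minus strand.
Tgfb2: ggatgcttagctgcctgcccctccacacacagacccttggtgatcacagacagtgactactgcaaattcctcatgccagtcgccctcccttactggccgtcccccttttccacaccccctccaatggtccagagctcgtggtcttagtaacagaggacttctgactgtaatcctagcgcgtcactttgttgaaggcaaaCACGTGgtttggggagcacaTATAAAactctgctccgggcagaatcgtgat
Tgfb1: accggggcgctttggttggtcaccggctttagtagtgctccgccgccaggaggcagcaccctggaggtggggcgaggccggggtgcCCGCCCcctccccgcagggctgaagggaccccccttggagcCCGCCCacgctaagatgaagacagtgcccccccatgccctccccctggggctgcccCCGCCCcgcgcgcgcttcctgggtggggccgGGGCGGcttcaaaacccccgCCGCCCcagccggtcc
Tgfbr2: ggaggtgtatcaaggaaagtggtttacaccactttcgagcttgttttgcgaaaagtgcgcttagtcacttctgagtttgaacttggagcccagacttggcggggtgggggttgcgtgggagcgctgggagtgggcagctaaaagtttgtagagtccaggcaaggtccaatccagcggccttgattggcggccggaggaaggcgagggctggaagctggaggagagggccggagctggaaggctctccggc
The Tgfb2 window held 1 E-box beginning 51 bases before the RefSeq start and 1 TATA box beginning 31 bases before it. This RefSeq start lies 3 bases from the deposited start used for region distances. The Tgfb1 window held 5 GC boxes and had a GC content of 75.2%, against 53.6% for Tgfb2 and 58.4% for Tgfbr2. The Tgfbr2 window held none of these motifs. Both strands were searched in 6 windows of 5 of the genes, and in 32851 mouse windows of this length. Tgfb3 and Tgfbr3 had no window in this search, so their motif content is not known here. Tgfbr1 had an additional window, 32911 bases from its deposited start. An E-box stood in 1 of the 6 windows and in 6.02% of all windows, a TATA box in 1 and in 12.4%, and a GC box in 2 and in 32.7%. The cyclic AMP response element TGACGTCA stood in 0 of the 6 and in 1.55% of all. These matches describe the letters only.

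The ligand, receptor and co-receptor genes did not move as one group after 4 h of 4-OHT. Tgfb2, Tgfb3, Tgfbr2 and Tgfbr3 fell, by between 1.18-fold and 1.67-fold, whereas no change in Tgfb1, Tgfbr1 or Eng passed the test. A gene was called where edgeR's quasi-likelihood test gave an adjusted p (Benjamini-Hochberg, over all 13216 genes tested) below 0.05. The 7 genes were chosen with earlier results of these data known, so their share of calls is a description only. All 7 genes passed the filter on low counts, and 4 of them were called, where 2.44% of all tested genes were called in either direction. All 4 were lower, where 1.63% of all tested genes were called lower. These 4 had both 4-OHT libraries below both EtOH libraries, as 18.3% of all tested genes did. None was called higher by the main edgeR fit or by DESeq2, where edgeR called 0.802% of all tested genes higher. At an unadjusted p below 0.05 (edgeR), 1 of the 7 (Tgfb1) was higher, as 5.04% of all tested genes were. Of the other 3, Tgfb1 had both 4-OHT libraries above both EtOH libraries, as 18.7% of tested genes did. For Tgfbr1 and Eng the treatments overlapped. The median log2 change of all tested genes was 0.002. Counted reads in the mRNA libraries numbered 69292382 and 89695667 with 4-OHT, and 71633387 and 60267540 with EtOH. Levels are given in CPM, the usual per-million scaling of counted reads.

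Among the ligands, Tgfb2 (chr1:186623186-186705992, minus strand, mm10) had the largest log2 change. Tgfb2 had 95.6 and 91.3 CPM in the 4-OHT libraries, against 151 and 161 CPM in the EtOH libraries. Both 4-OHT libraries lay far below both EtOH libraries, and the gap was several times the spread within either treatment. The means were 93.5 ± 3.05 CPM with 4-OHT and 156 ± 7.56 CPM with EtOH (SD, n = 2 each). The log2 change was -0.74 (SE 0.07), 1.67-fold lower, with an adjusted p of 2.02e-11 in edgeR. It ranked 49 from the strongest fall among the 216 genes called lower. The authors' deposited table gives Tgfb2 a log2 change of -0.61 (SE 0.0561, adjusted p 3.10e-24).

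Tgfb3 (chr12:86056743-86079041, minus strand) fell less. Tgfb3 had 219 and 224 CPM with 4-OHT, against 295 and 297 CPM with EtOH. Replicates of either treatment lay close together and the treatments were well apart. The means were 222 ± 2.92 CPM with 4-OHT and 296 ± 1.66 CPM with EtOH (SD, n = 2 each), a log2 change of -0.42 (SE 0.06, edgeR adjusted p = 8.25e-06), 1.34-fold lower.

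Tgfb1 (chr7:25687002-25704996, plus strand, 7 exons) went the other way without passing the test. Tgfb1 had 51.8 and 56.9 CPM with 4-OHT, against 44.8 and 49.8 CPM with EtOH. The treatments did not overlap, but the gap between the lower 4-OHT library and the higher EtOH library was smaller than the spread within each treatment. The means were 54.3 ± 3.58 CPM with 4-OHT and 47.3 ± 3.58 CPM with EtOH (SD, n = 2 each). The log2 difference was 0.20 (SE 0.07, edgeR adjusted p = 0.200).

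The make-up of the ligand mRNA differed between treatments. On a scale per exon length, CPM divided by exon length in kilobases (RPKM), the 3 ligands summed to 110 and 113 RPKM with 4-OHT, against 140 and 146 RPKM with EtOH. Tgfb3 made up most of this sum in every library, at 59.0% and 58.7% with 4-OHT and 62.1% and 60.2% with EtOH. The share of Tgfb2 was 18.4% and 17.2% with 4-OHT, against 22.7% and 23.4% with EtOH. The share of Tgfb1 was 22.5% and 24.1% with 4-OHT, against 15.2% and 16.3% with EtOH. Tgfb1 thus stood above Tgfb2 in both 4-OHT libraries and below it in both EtOH libraries. These shares follow from the levels tested above and were not tested themselves.

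Of the 2 receptors, only Tgfbr2 was called. Tgfbr2, the type II receptor that binds the ligand (chr9:116087695-116175363, minus strand, 8 exons), had 222 and 224 CPM with 4-OHT, against 267 and 259 CPM with EtOH. The treatments were apart, and the spread within each was small beside the gap. The means were 223 ± 1.49 CPM with 4-OHT and 263 ± 5.50 CPM with EtOH (SD, n = 2 each), a log2 change of -0.24 (SE 0.06, edgeR adjusted p = 0.0233), 1.18-fold lower. This call was lost without any 1 of the 4 libraries. Leaving out 4-OHT replicate 1 gave an adjusted p of 0.0530 and leaving out 4-OHT replicate 2 gave 0.0600 (edgeR). The values were 0.398 and 0.250 when EtOH replicate 1 or EtOH replicate 2 was dropped.

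Tgfbr1, the type I receptor that phosphorylates SMADs (chr4:47353305-47414924, plus strand, 9 exons), had 54.3 and 48.6 CPM with 4-OHT, against 49.8 and 49.3 CPM with EtOH. Both EtOH libraries lay between the 4-OHT libraries. The log2 difference was 0.05 (SE 0.07, edgeR adjusted p = 0.902), and without 4-OHT replicate 1 its sign turned, to -0.028.

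The co-receptors differed widely in level. Betaglycan's gene Tgfbr3 (chr5:107106570-107289595, minus strand, 17 exons) had 88.6 and 85.8 CPM with 4-OHT, against 139 and 144 CPM with EtOH. The treatments were as clearly apart as those of Tgfb2. The means were 87.2 ± 1.97 CPM with 4-OHT and 141 ± 3.27 CPM with EtOH (SD, n = 2 each), a log2 change of -0.70 (SE 0.06, edgeR adjusted p = 6.40e-11), 1.62-fold lower. In the authors' deposited table its log2 change is -0.58 (SE 0.0544, adjusted p 7.42e-24), and that table of 3317 genes holds, of the 7 genes, Tgfb2 and Tgfbr3.

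Endoglin, encoded by Eng (chr2:32646595-32682669, plus strand, 14 exons), is an accessory receptor best known from endothelial cells. Eng had 2.77 and 3.21 CPM with 4-OHT (193 and 290 reads), against 2.89 and 2.99 CPM with EtOH (206 and 179 reads). The EtOH libraries lay between the 4-OHT libraries. The log2 difference was 0.03 (SE 0.14, edgeR adjusted p = 0.987), with a standard error larger than that of Tgfbr1. Without 4-OHT replicate 2 the sign turned, to -0.086.

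**Figure D1:**
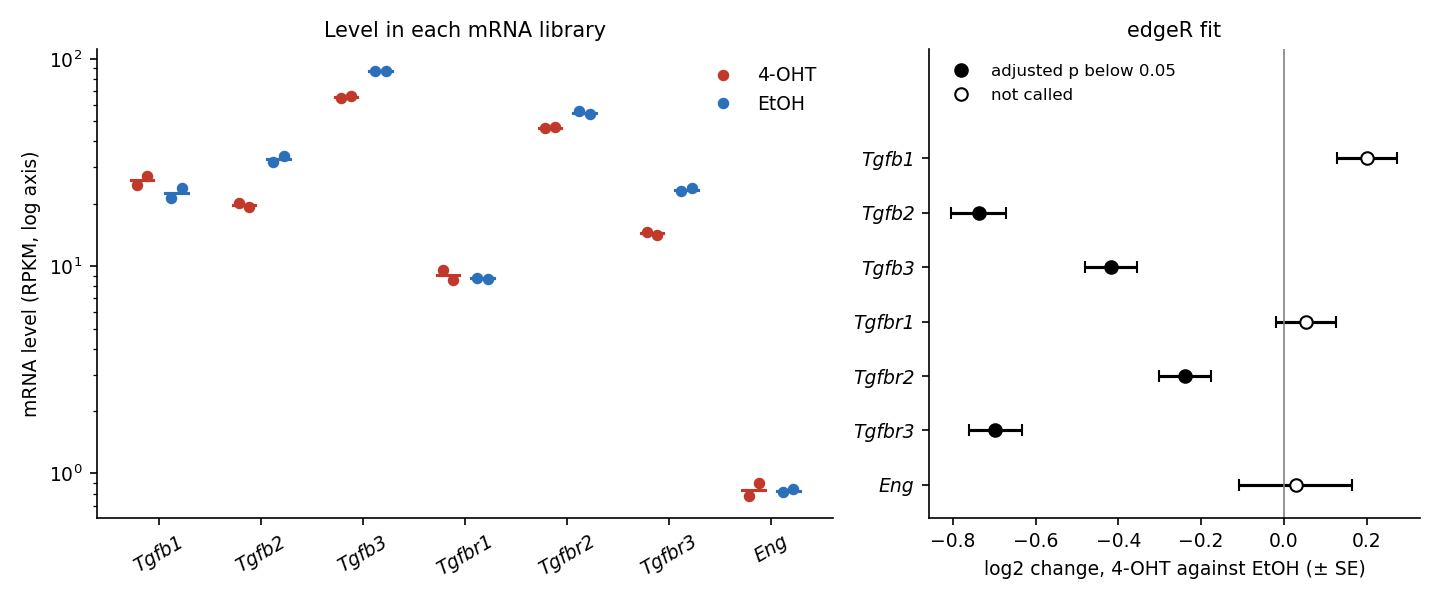
Left, mRNA level of the 7 genes in RPKM on a log axis, with points for libraries and lines for means (4-OHT to the left of EtOH). Right, log2 change (4-OHT against EtOH) from edgeR with its SE, filled where the adjusted p is below 0.05: Tgfb2, Tgfb3, Tgfbr2 and Tgfbr3 are filled and below 0, and Eng has the lowest level, 0.775 to 0.897 RPKM.

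Per exon length, Tgfb3 was the most abundant of the 7 mRNAs, with a mean of 76.4 RPKM over the 4 libraries (64.8 to 87.8). Tgfbr2 followed at 50.8 RPKM (46.3 to 55.8), and its libraries lay apart from those of Tgfb3 and of Tgfb2. Tgfb2 at 26.4 RPKM (19.3 to 34.1) overlapped with Tgfb1 at 24.3 RPKM (21.4 to 27.2), which in turn overlapped with Tgfbr3 at 18.9 RPKM (14.2 to 23.7). Tgfbr1 lay apart below them at 8.91 RPKM (8.58 to 9.58), and Eng was lowest at 0.830 RPKM (0.775 to 0.897). The receptor that binds ligand was the more abundant of the receptor mRNAs in every library. The order differed between treatments in the middle only: Tgfb1, Tgfb2, Tgfbr3 with 4-OHT, against Tgfb2, Tgfbr3, Tgfb1 with EtOH.

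The 3 genes whose pattern was nearest to that of Tgfb2 included Tgfbr3. Nearness was the Euclidean distance of centred log2 CPM over the 4 libraries, among 13215 other tested genes. Neb, which encodes the muscle protein nebulin, was nearest at 0.0520 and had a log2 change of -0.70. Nrn1, which encodes the neuronal surface protein neuritin, followed at 0.0559 with a log2 change of -0.72, and Tgfbr3 at 0.0563. In the same order of nearness, 118 genes stood before Tgfb3, 399 before Tgfbr2 and 11811 before Tgfb1. With 2 libraries in each treatment, nearness here reflects mainly the size of the difference between treatments.

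Marker lists of fibroblasts and of other cell types were read beside these genes. Fibroblast markers summed to 28482 and 30360 CPM with 4-OHT and 30154 and 27884 CPM with EtOH, with 9 of 11 having a count, 3 of 11 below 1 CPM, and Thy1 and Lum at 0. Endothelial markers summed to 5.67 and 5.64 CPM with 4-OHT and 5.99 and 6.69 CPM with EtOH, with 7 of 11 having a count and 9 of 11 below 1 CPM. Of this list, Cdh5, Tie1, Cldn5 and Robo4 were at 0. The highest was Egfl7, with means of 3.76 CPM with 4-OHT and 3.18 CPM with EtOH. Both 4-OHT libraries of Egfl7 lay above both EtOH libraries, but it was not called (edgeR adjusted p = 0.548). Kdr, which encodes VEGF receptor 2, averaged 1.04 CPM with 4-OHT and 2.54 CPM with EtOH and was called lower (log2 change -1.27, edgeR adjusted p = 7.82e-07). Smooth muscle markers summed to 1165 and 1204 CPM with 4-OHT and 1207 and 1267 CPM with EtOH, with 2 of 6 below 1 CPM. Most of this sum was Acta2, with means of 1092 CPM with 4-OHT and 1144 CPM with EtOH. Macrophage markers summed to between 3.11 and 3.48 CPM and epithelial markers to between 12.6 and 16.7 CPM over the 4 libraries. In either list 5 of 6 were below 1 CPM, and the highest were Cd68 and Cdh1. The part of these lists in the results was not tested. Per2 averaged 581 ± 40.0 CPM with 4-OHT and 559 ± 11.5 CPM with EtOH (SD, n = 2 each), a sum over exons that cannot separate transgene from endogenous reads and so does not check the knockout labels.

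Other pathway genes were called in the lists of latency and activation and of target genes. Of 76 other TGF-β pathway genes found in the table, 72 were tested, of which 2 were called higher, 4 lower and 66 neither, with a median log2 difference of 0.03. The 6 calls are 8.33% of the tested genes of these lists, against 2.44% of all tested genes. Of the lists, 5.56% were lower and 2.78% higher, against 1.63% and 0.802% of all. The lists, that of target genes included, were chosen with earlier results of these data known, so these shares only describe them. Among 18 tested genes of latency and activation, 2 (11.1%) were called lower and 0 higher, by edgeR and by DESeq2, with a median of 0.03. At an unadjusted p below 0.05, 3 were lower and 1 higher (edgeR), where 5.02% of all tested genes were lower and 5.04% higher. Thbs1, whose product thrombospondin 1 releases TGF-β1 from its latent form, had 2972 and 2933 CPM with 4-OHT, against 3819 and 3815 CPM with EtOH. The treatments were far apart beside the replicate spread, a log2 change of -0.37 (SE 0.06, edgeR adjusted p = 2.94e-05). Itgb8, which encodes the β subunit of the latent TGF-β activating integrin αvβ8, had 41.1 and 37.1 CPM with 4-OHT, against 54.6 and 51.9 CPM with EtOH. Its log2 change was -0.45 (SE 0.07, edgeR adjusted p = 3.86e-05). Both were called under all 10 alternatives in normalization, filter, tool and left-out library.

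No gene was called by edgeR or DESeq2 among 11 SMADs and SMAD partners (median log2 difference 0.01), 12 pathway inhibitors (0.05) or 6 tested receptors of bone morphogenetic proteins and activins (-0.03). At an unadjusted p below 0.05 (edgeR), 1, 4 and 0 genes of these lists passed, all higher with 4-OHT, where 10.1% of all tested genes passed and 5.04% were higher. The largest differences in these lists did not pass edgeR's test. They were 0.34 for Smad9, a SMAD of the bone morphogenetic protein branch (adjusted p = 0.138), 0.39 for the pseudoreceptor gene Bambi (adjusted p = 0.366) and -0.20 for the activin receptor gene Acvr2b (adjusted p = 0.945). Next to them stood Zfyve9, the SMAD anchor SARA, at 0.06 (adjusted p = 0.887), the corepressor gene Tgif2 at 0.26 (adjusted p = 0.345) and the type I receptor gene Acvr1 at 0.11 (adjusted p = 0.624).

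Of 28 genes listed here as TGF-β targets, without regard to the direction of their response, 2 were called lower and 2 higher. The median log2 difference was 0.07. The 4 calls are 14.3% of the list, against 2.44% of all tested genes. At an unadjusted p below 0.05, 13 passed, of which 9 were higher and 4 lower (edgeR). Of all tested genes, 10.1% passed this cut, 5.04% higher and 5.02% lower. Cyr61, which encodes a matricellular protein, had 602 and 625 CPM with 4-OHT, against 736 and 741 CPM with EtOH (log2 change -0.27, SE 0.06, edgeR adjusted p = 0.00654). Both 4-OHT libraries lay below both EtOH libraries. Snai1 and Junb were called higher. Snai1, a repressor of epithelial genes, had 13.0 and 17.1 CPM with 4-OHT, against 11.4 and 11.6 CPM with EtOH (log2 change 0.40, SE 0.10, edgeR adjusted p = 0.0159). Junb, an AP-1 subunit, had 90.4 and 107 CPM with 4-OHT, against 78.3 and 76.6 CPM with EtOH (log2 change 0.35, SE 0.07, adjusted p = 0.00115). The calls of Cyr61, Snai1 and Junb depended on single libraries. That of Cyr61 was lost without EtOH replicate 1 (adjusted p = 0.113) or 2 (0.177). The call of Snai1 was lost when EtOH replicate 1 (0.0759), the other EtOH library (0.0531) or 4-OHT replicate 2 (0.9996) was dropped, and with DESeq2 (0.130), and that of Junb without 4-OHT replicate 2 (0.193).

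**Figure D2:**
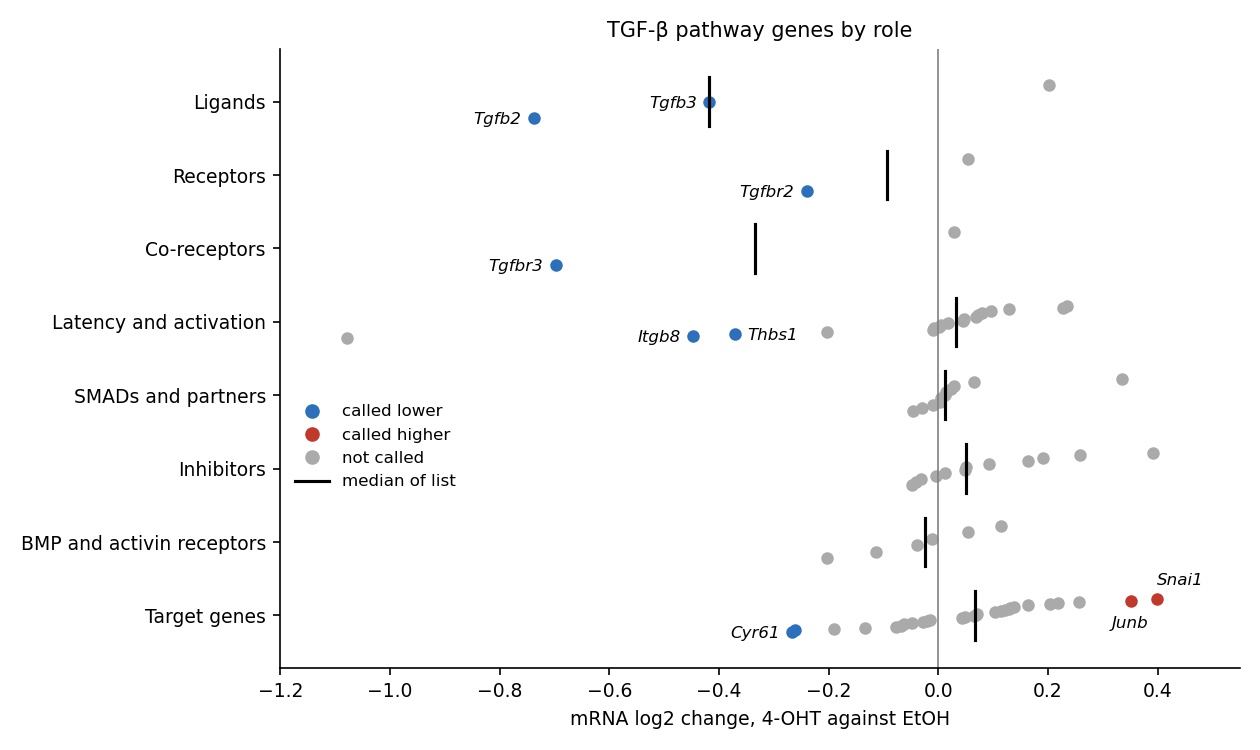
mRNA log2 change (4-OHT against EtOH) of each tested gene, in rows by role, with called genes in colour and the median of each list as a black line. All called genes but 1 target gene are labelled: 4 of the 7 ligand, receptor and co-receptor genes lie below 0, and the medians of the other lists lie between -0.03 and 0.07.

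BMAL1 regions lay within 50 kb of the starts of 4 of the 7 genes, where 45.5% of tested genes have such a region. The regions are the authors' peaks of EtOH-treated cells, so the EtOH ChIP libraries chose them, and the difference between treatments at them is given as a description with no p. Counts of regions past the threshold stand only beside the share of all regions, and nothing is read from them. Tgfb2 had 3 regions, and Tgfb1, Tgfbr3 and Eng had 1 each. Regions within 10 kb stood at Tgfb2 and Tgfbr3, where 27.1% of tested genes have one. Of the 4 genes that were called lower, Tgfb2 and Tgfbr3 had a region and Tgfb3 and Tgfbr2 had none. Of the other 3, Tgfb1 and Eng had a region and Tgfbr1 had none. The furthest region inside the limit lay 39464 bp upstream of Eng. Outside it, the nearest lay 67485 bp upstream of Tgfb1, 78212 bp downstream of Tgfb3 and 96577 bp upstream of Eng.

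**Figure D3:**
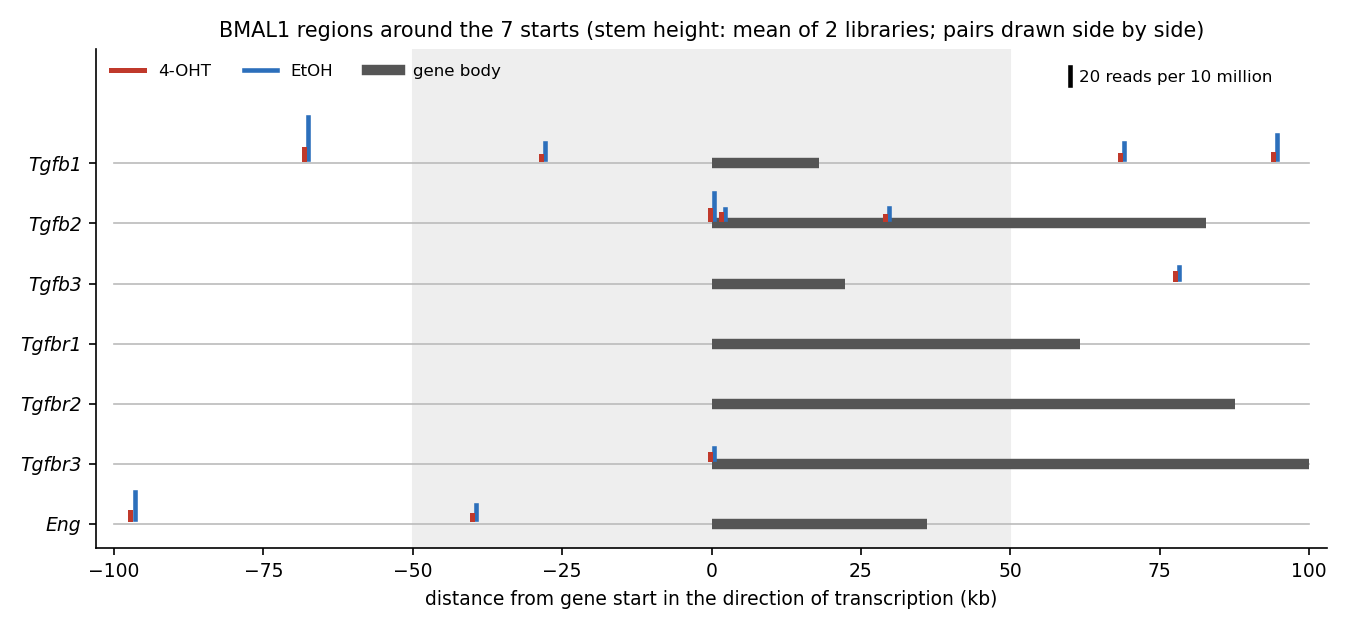
BMAL1 regions around the start of each gene, as distance in kb in the direction of transcription, with the 50 kb window shaded and the gene body as a dark bar. Stems are mean reads per 10000000 (4-OHT to the left of EtOH), and the stems within 10 kb of a start stand at Tgfb2 and Tgfbr3.

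Signal is given as reads per 10000000 library reads (RP10M), which is not divided by length. The ChIP libraries held 13740997 and 20712373 reads with 4-OHT and 13502201 and 17635022 with EtOH, so a region here holds few reads. At the region in exon 1 of Tgfb2 (chr1:186705153-186705502, 490 bp downstream of the start), BMAL1 signal was 5.82 and 12.6 RP10M with 4-OHT (8 and 26 reads), against 24.4 and 31.2 RP10M with EtOH (33 and 55 reads). The E-box shown above lies outside it, in a window that ends 488 bases away. The EtOH libraries were both higher. In RP10M the 4-OHT libraries differed from each other by about as much as the EtOH libraries did, but by more relative to their level. The fitted difference was 2.87-fold lower with 4-OHT.

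The other Tgfb2 regions were in introns. At chr1:186703629-186703787, 2205 bp downstream of the start, signal was 3.64 and 6.28 RP10M with 4-OHT (5 and 13 reads), against 9.63 and 11.9 RP10M with EtOH (13 and 21 reads). At chr1:186676159-186676319, 29673 bp downstream, it was 3.64 and 2.41 RP10M with 4-OHT (5 and 5 reads), against 12.6 and 9.64 RP10M with EtOH (17 and 17 reads). The treatments were apart at both, and the fitted differences were 2.08-fold and 3.69-fold lower with 4-OHT.

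The Tgfbr3 region (chr5:107288995-107289130) was also intronic, 465 bp downstream of the start. Signal was 6.55 and 3.86 RP10M with 4-OHT (9 and 8 reads), against 14.1 and 9.64 RP10M with EtOH (19 and 17 reads). It was 2.32-fold lower with 4-OHT, and the gap between the nearest libraries of the treatments was smaller than the spread of the EtOH libraries.

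The remaining regions lay nearer to the starts of other genes. The Tgfb1 region (chr7:25659012-25659189), 27813 bp upstream, spanned the start of Exosc5, an RNA exosome subunit gene, and overlapped an exon of it. The start of Bckdha lay 251 bp from this region. Signal there was 2.91 and 3.38 RP10M with 4-OHT (4 and 7 reads), against 16.3 and 17.6 RP10M with EtOH (22 and 31 reads), and it was 5.23-fold lower with 4-OHT. The Eng region (chr2:32606958-32607131), 39464 bp upstream, overlapped an exon of the sialyltransferase gene St6galnac6. Signal there was 2.18 and 6.76 RP10M with 4-OHT (3 and 14 reads), against 17.8 and 11.3 RP10M with EtOH (24 and 20 reads), and it was 2.89-fold lower with 4-OHT. Both were apart between treatments, the Tgfb1 region with close replicates and the Eng region with spread ones. The mRNAs of Exosc5 (log2 difference -0.01, edgeR adjusted p = 0.993), Bckdha (0.10, edgeR adjusted p = 0.820) and St6galnac6 (0.02) were not called.

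All 6 regions were lower in both 4-OHT than in both EtOH libraries, as 98% of all regions were, and 6 of 6 were called lower, as 93.8% of all regions were. The median log2 difference was -1.53 over the 6 regions and -1.66 over all 4740. Without EtOH ChIP replicate 1, 3 of the 6 were called, and 79.2% of all regions. Without 4-OHT ChIP replicate 2 the log2 difference was -2.26 at the exon 1 region of Tgfb2 and -2.66 at the Eng region. With EtOH the 6 regions had a median of 13.2 RP10M, against 23.7 RP10M over all regions. Their median fold over the EtOH input was 16.5, against 12.2 over all regions, of which 99.5% were called above that input, and nothing is read from this either. The share of ChIP reads in all regions was 0.689% and 0.749% with 4-OHT, against 2.63% and 2.46% with EtOH.

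BMAL1 signal with 4-OHT was called above the 4-OHT input at 5 of the 6 regions, and at 80.6% of all regions (edgeR, over all regions). The count is near that share, and nothing particular to these regions is read from it. The 4-OHT libraries did not choose the regions, so this comparison was tested. The fold over input was 4.52 at the Tgfb1 region (log2 2.18, SE 0.88, adjusted p = 0.0161) and 4.41 at the Tgfbr3 region (log2 2.14, SE 0.73, adjusted p = 0.00590). It was 3.11 at the Eng region (log2 1.64, SE 0.68, adjusted p = 0.0213). At Tgfb2 the region in exon 1 stood 2.63-fold above input (log2 1.39, SE 0.46, adjusted p = 0.0050) and the nearer intronic region 2.59-fold (log2 1.37, SE 0.62, adjusted p = 0.0361). The further intronic region stood 1.65-fold above input and did not pass the test (log2 0.72, SE 0.73, adjusted p = 0.330). At all 6 regions both ChIP libraries lay above both inputs, as at 90.5% of all regions. The median fold was 2.86 over the 6 regions and 3.68 over all. These calls rest on few reads: 1 of 6 was called without 4-OHT ChIP replicate 2, where 61.3% of all regions were, and 2 of 6 without 4-OHT input replicate 2, where 58.3% were. Without 4-OHT ChIP replicate 2 the log2 value over input was 0.50 at the Eng region and 0.65 at the exon 1 region of Tgfb2. Without 4-OHT input replicate 2 it was 1.99 at the exon 1 region and 6.11 at the Tgfbr3 region, where the input left has 0 reads, so that the fitted value is no bound.

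Inputs were low at all 6 regions, between 0 and 4.18 RP10M with 4-OHT and between 0.354 and 2.18 RP10M with EtOH. The value of 0 was that of the Tgfbr3 region in 4-OHT input replicate 1. No input difference between treatments was called at these or any other of the 4740 regions (0%, edgeR), while 218 of 4740 had an unadjusted p below 0.05 and 1 was called with TMM factors. The smallest unadjusted p among the 6 was 0.0721, and the log2 difference ranged between -0.51 and 1.75. The median log2 difference of the input (4-OHT against EtOH) was 0.86 over the 6 regions and 0.13 over all 4740. The standard errors were 0.63 to 1.23 on the log2 scale.

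**Figure D4:**
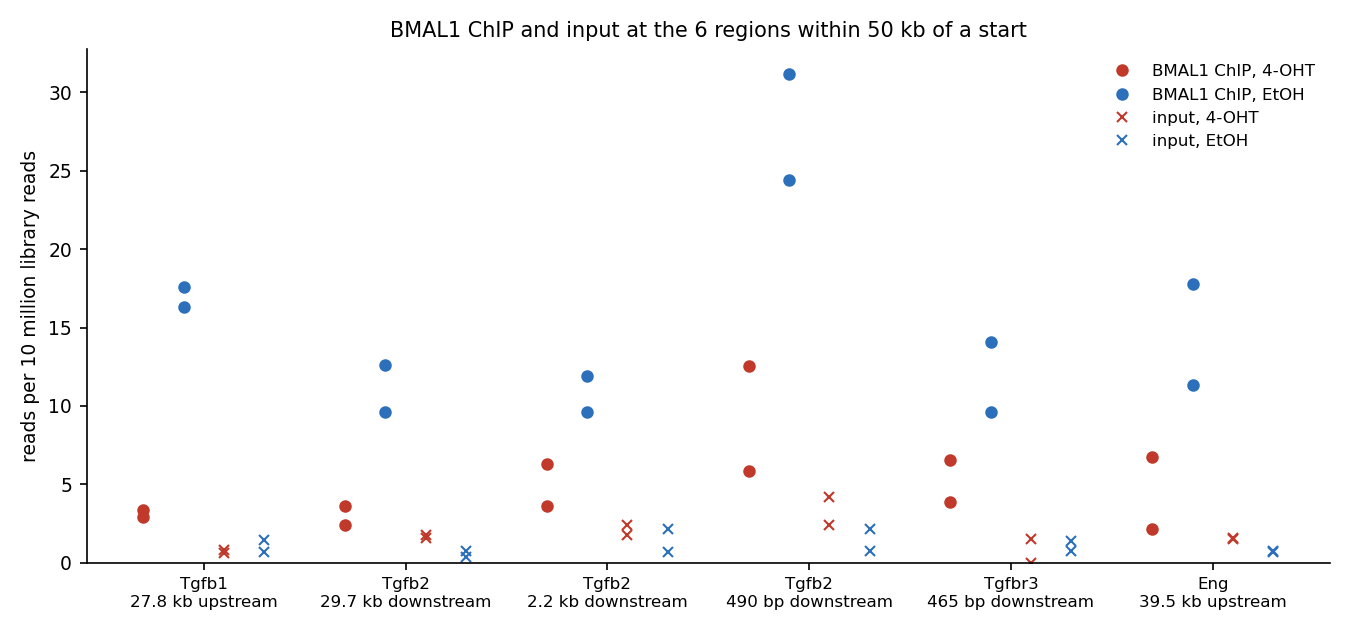
BMAL1 ChIP and input signal (RP10M) at the 6 regions in each library, with 4-OHT to the left of EtOH, as points. At each region both 4-OHT ChIP points lie below both EtOH ChIP points and above both 4-OHT inputs.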

How the data were processed

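Members and gene lists were chosen with earlier results of these data known. Per the file headers, the authors made the deposited counts per gene with featureCounts v1.5.0-p1 on reverse-stranded reads and UCSC mm10 genes. Of the aligner nothing is given in the sources used here. Bedtools 2.25.0 and DESeq2 are named in the submitters' processing notes. The deposited region files hold read counts in 4740 regions, whose names mark them as MACS2 control peaks, with the authors' fold enrichment, −log10 p and q values and score. The deposited signal table, named as RPKM, holds 5 plus reads per 10000000 library reads. Library totals were taken from it. The authors' deposited table gives a log2 fold change and p-values for 3317 genes. Pooling of replicates for peak calling is likewise not given.

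Gene and region counts went into edgeR 4.0.16 under R 4.3.3 (TMM factors, the default expression filter, robust quasi-likelihood fits, Benjamini-Hochberg adjustment, calls below 0.05). TMM factors lay between 0.992 and 1.01. CPM used TMM factors, and RPKM divided CPM by the deposited exon length. The region tests used library totals with no further scaling, and ChIP against input was fitted on all 8 libraries. A start is the upstream end of the outermost exon. The fits were tested on simulated data. Named genes were the 7 genes, genes near their regions, the 3 nearest to Tgfb2 and, in each list, the called genes or else the 2 largest differences, except that 1 called target gene is not reported here by name. Older symbols (Lrrc33, Emr1) were matched through RefSeq. Smad7, Skil and Pmepa1 stand in 2 lists. Alternatives were other size factors, DESeq2 1.42.0, filters, a prior count of 2, distances, scaling over regions, input subtraction, a replicate block and leaving out each library.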

Additional observations from a re-analysis of the deposited data

How the results depend on the processing

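Tgfb2, Tgfb3 and Tgfbr3 were called lower under all 10 mRNA alternatives, with log2 changes of -0.79 to -0.69, -0.43 to -0.40 and -0.72 to -0.67. Tgfbr2 kept its call under 5 of the 10. Leaving out each mRNA library gave 3 genes called lower each time. Leaving out 1 mRNA library gave log2 differences of -0.028 to 0.133 for Tgfbr1, -0.086 to 0.123 for Eng and 0.126 to 0.281 for Tgfb1, and none was called. CPM without division by length moved 2 genes in the order of levels, and 2 genes had a region within 10 kb in place of 4 within 50 kb.

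TMM factors over the regions set the change shared by most regions to about 0 by construction. The count of regions called lower was then 0, with log2 differences of 0.62 and 0.16 at the intronic region nearest the start and the exon 1 region of Tgfb2, 0.46 at Tgfbr3 and 0.16 at Eng, and of -0.72 at Tgfb1 and -0.22 at the further intronic region of Tgfb2. The count above input was also 0, with log2 values of -1.15, -0.50 and -0.50 at Tgfb2 (furthest region first), -0.23 at Eng, 0.37 at Tgfb1 and 0.28 at Tgfbr3. Of all regions, 4.81% were then called lower and 4.89% above input. DESeq2 with library totals called 3 regions lower (70.2% of all regions), and subtracting the input change called 3 (50.5% of all); the cause was not tested. Leaving out 1 library gave log2 differences of -2.66 to -0.79 at the 6 regions. The log2 values over input were then 0.46 to 6.11, the last where the input left has 0 reads. Read numbers, 3 to 26 in each 4-OHT ChIP library, limit the region results.

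With replicate number as a block, 3 of the 7 genes were called lower (152 lower and 60 higher of all genes, in place of 216 and 106), and the adjusted p of Tgfbr2 was 0.244. The block also ended the call of Cyr61. Of the regions, 6 were then called lower (92.3% of all regions), 5 above input (78.8% of all) and 0 in the inputs (0% of all). The labels do not say that a number marks a shared culture. Deviations of replicate 1 correlated between treatments at -0.17 over genes, 0.02 over ChIP regions and 0.02 over input regions. With the numbers crossed, an alternative chosen after seeing the data, 4 of the 7 genes were called lower and 1 higher (611 lower and 518 higher of all genes). The 1 higher was Tgfb1 (log2 difference 0.20, edgeR adjusted p = 0.00198).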

Other observations

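The genes for SMADs that carry the signal from the receptors, named here after their values were seen, overlapped between treatments. Smad2 had 90.1 and 82.6 CPM with 4-OHT and 87.7 and 90.7 CPM with EtOH, Smad3 had 77.9 and 77.8 CPM with 4-OHT and 77.1 and 78.2 CPM with EtOH, and Smad4 had 131 and 125 CPM with 4-OHT and 129 and 126 CPM with EtOH. Smad7, an inhibitor induced by the pathway, had 30.7 and 32.0 CPM with 4-OHT and 29.5 and 26.5 CPM with EtOH (edgeR adjusted p = 0.471). Ctgf, a matricellular target, had 285 CPM in both 4-OHT libraries and 312 CPM in both EtOH libraries, a log2 difference of -0.13 that did not pass the test (edgeR adjusted p = 0.448). The matrix and contractile targets Col1a1, Fn1 and Acta2 had log2 differences of 0.07, -0.06 and -0.07 (edgeR adjusted p = 0.875, 0.837 and 0.830).

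Of the 5 regions between 50 and 100 kb of a start, 3 stood around Tgfb1 and 1 each at Tgfb3 and Eng. The Tgfb3 region, in an intron of Ttll5, had a mean of 6.53 RP10M with 4-OHT and 13.0 RP10M with EtOH. The strongest of the 5, 67485 bp upstream of Tgfb1, had a mean of 10.3 ± 5.27 RP10M with 4-OHT and 44.4 ± 11.5 RP10M with EtOH (SD, n = 2 each).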
